A study of Mus musculus with 2 samples.

Results

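The 10 genes examined here encode the transcription factor ATF4, 3 further stress regulators (Ddit3, Trib3 and Chac1) and 6 enzymes of serine, asparagine and one-carbon metabolism (Phgdh, Psat1, Psph, Asns, Shmt2 and Mthfd2). They were taken by symbol from a table of 18888 genes, and all 10 were found in it. Both libraries were made from 46C, a mouse embryonic stem cell (mESC) line, at passages 21 to 24. PB mESCs carried the empty PiggyBac vector, and PB-TERRA mESCs expressed polyadenylated TERRA, the RNA transcribed from telomere repeats, from the same vector. RNA of each was sequenced as 1 library. Whether each line was a clone or a pool of transfected cells is not given in the sources used here. With 1 library per condition the spread between cultures could not be estimated, so every difference below is between 2 libraries and carries counting error only.

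ATF4 is the main effector of the integrated stress response. Kinases that sense unfolded proteins, amino acid shortage, double-stranded RNA or haem shortage phosphorylate the initiation factor eIF2, which lowers general translation while the Atf4 mRNA is translated more. ATF4 protein then binds composite C/EBP-ATF elements and turns on genes for amino acid synthesis, amino acid transport and tRNA charging, and under lasting stress also Ddit3, Trib3 and Chac1. Because much of this control acts on translation, the Atf4 mRNA measured here is not a measure of ATF4 protein. In mESCs, serine, glycine and threonine supply one-carbon units for nucleotide synthesis and methylation. The LIF/serum medium that the study describes for mESCs contained nonessential amino acids, Glutamax and β-mercaptoethanol.

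The core letters of the C/EBP-ATF element, TGATGNAA, were searched on both strands of RefSeq windows on GRCm38.p6 that run from 250 bases before to 50 bases after each gene start. They were found for 3 of the 10 genes (Chac1, Asns and Trib3), that is 30%, beside 4.51% of 27025 genes with a window. Among the genes that passed the expression filter described below and have a window, the share was 2.51%. A match describes these letters only, and no binding was measured. The 10 genes were chosen around ATF4, so their share describes the choice and is not a test. The 250 bases before the start are shown for Chac1 and Ddit3, the 2 genes that differed most between the libraries and in opposite directions. For Asns and Trib3 a stretch of 30 bases around the match is shown. Capitals mark the match, which in Chac1 and Trib3 reads as the reverse complement.
Chac1, chr2:119350992-119351241, + strand: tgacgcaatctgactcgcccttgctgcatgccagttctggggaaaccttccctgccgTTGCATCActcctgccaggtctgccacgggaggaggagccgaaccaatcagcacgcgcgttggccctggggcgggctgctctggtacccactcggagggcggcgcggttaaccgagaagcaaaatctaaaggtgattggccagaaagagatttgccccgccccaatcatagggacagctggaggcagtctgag
Ddit3, chr10:127290543-127290792, + strand: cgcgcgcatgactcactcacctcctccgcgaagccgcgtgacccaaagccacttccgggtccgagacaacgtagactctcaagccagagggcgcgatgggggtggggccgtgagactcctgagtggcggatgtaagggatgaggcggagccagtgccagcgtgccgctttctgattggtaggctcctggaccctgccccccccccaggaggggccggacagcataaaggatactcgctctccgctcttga
Asns, chr6:7693214-7693243, - strand: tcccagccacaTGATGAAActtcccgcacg
Trib3, chr2:152344028-152344057, - strand: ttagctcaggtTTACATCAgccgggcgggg
The Chac1 match began 193 bases before the RefSeq start and the Asns match 23 bases before it, whereas the Trib3 match began 14 bases after it. For Trib3 alone the first bases after the RefSeq start were not found in its GENCODE M21 transcripts, so the place of that start is uncertain. The Ddit3 window held no match.

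Levels are FPKM, a read density scaled to gene length and to library size, which makes genes of different length comparable. The reads behind each value were worked out from its FPKM and the gene length, taking a depth of 24745000 reads for PB and 24740000 for PB-TERRA that was fitted to the whole-read steps of low values. The intervals given are exact 95% intervals of these reads. Genes that reached 1 FPKM in either library were kept, 12263 in all, and all 10 genes were among them.
In PB mESCs the highest level was that of Psat1, 149.14 FPKM, followed by Asns with 124.89, Shmt2 with 100.27, Atf4 with 93.63 and Phgdh with 90.27 FPKM. The intervals of Atf4 (90.6 to 96.7 FPKM) and Phgdh (87.5 to 93.1 FPKM) overlapped, so the order of these neighbours was not resolved. Mthfd2 followed with 37.30 FPKM. Trib3 (14.60 FPKM) and Psph (13.03 FPKM) had overlapping intervals, as did Chac1 (5.14 FPKM) and Ddit3 (4.69 FPKM). Among the genes past the filter, the 5 highest of the 10 lay between the 92.7th and the 96.1st percentile of level in PB, and Chac1 and Ddit3 at 29.9 and 28.0.
In PB-TERRA mESCs the order was the same except at 2 places. Atf4, with 97.87 FPKM, stood above Shmt2, with 89.94 FPKM, and Ddit3, with 6.26 FPKM, stood above Chac1, with 3.14 FPKM. In that library the intervals of each of these 2 pairs did not overlap, while those of Shmt2 and Phgdh (87.21 FPKM) did. The mRNA of ATF4 was thus abundant in both libraries, and the transcripts of its stress targets Ddit3 and Chac1 were the lowest of the 10 in both. Trib3, a stress target too, lay near the middle of the genes past the filter, at percentiles 58.1 in PB and 55.0 in PB-TERRA.

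**Figure D1:**
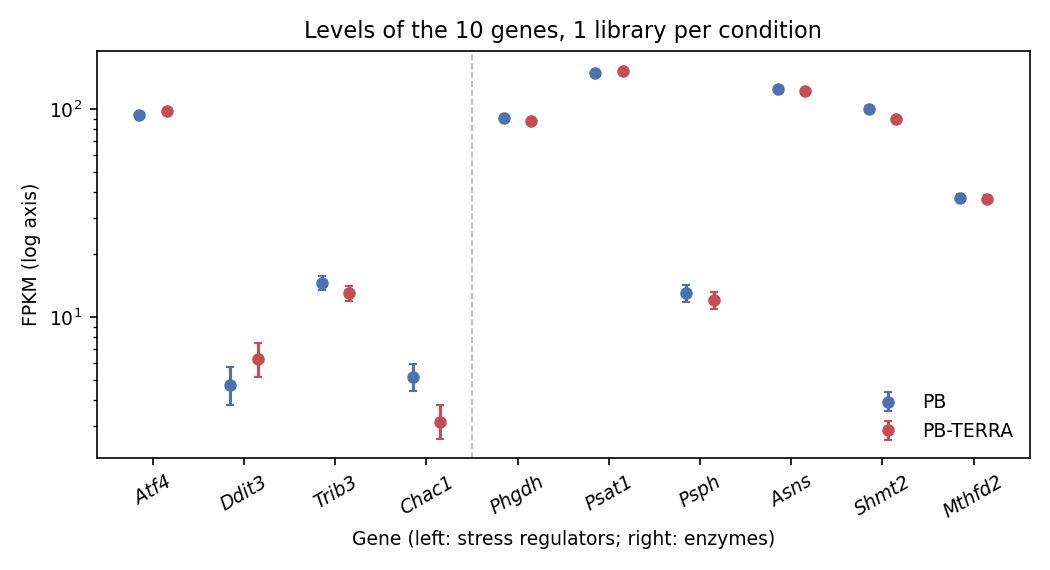
FPKM (log axis) of the 10 genes in the PB and the PB-TERRA library, 1 point per library, with exact 95% Poisson intervals of the estimated reads as bars. Atf4 and 4 enzymes lay between 87.21 and 151.89 FPKM in both libraries, and Chac1 (5.14 and 3.14 FPKM) and Ddit3 (4.69 and 6.26 FPKM) lie lowest.

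Chac1, which encodes an enzyme that breaks down glutathione, differed most. It had 5.14 FPKM in the PB library against 3.14 FPKM in PB-TERRA, from an estimated 187 and 114 reads. The log2 ratio (PB-TERRA over PB, with 0.1 added to each FPKM) was -0.69, and the 95% interval of the read ratio was -1.06 to -0.37. Of the genes past the filter, 1.17% had a lower log2 ratio, and of the 5800 with a mean under 10 FPKM it was 2.34%.
Ddit3, which encodes CHOP, a transcription factor that promotes cell death under lasting stress, lay on the other side. It had 4.69 FPKM in the PB library against 6.26 FPKM in PB-TERRA, from 88 and 117 reads, a log2 ratio of 0.41. Its interval, 0.0052 to 0.83, barely cleared 0, and its lower end fell at -0.00013 when the interval was centred on the fitted depths. Of the genes past the filter, 96.5% had a lower log2 ratio, and of those with a mean under 10 FPKM it was 93.7%. The intervals of Ddit3 and Chac1 did not overlap. The level of Ddit3 over that of Chac1 was 0.912 in PB and 1.99 in PB-TERRA. Ddit3 and Chac1 had the highest and the lowest log2 ratio of the 10 genes. The pair was picked by these same values, so the gap between them is a description and not a test. Ddit3 shared 1.11% of its 50-base transcript stretches with Mars, and Chac1 shared none with any other annotated gene.
Trib3, a pseudokinase that restrains ATF4 and AKT signalling, had 14.60 FPKM in the PB library against 13.0 in PB-TERRA, from 700 and 624 reads. Its log2 ratio was -0.17 (95% interval -0.33 to -0.0097). Atf4 itself had 93.63 and 97.87 FPKM, from 3707 and 3879 reads, and its log2 ratio was 0.06 (95% interval -0.0014 to 0.13). The lower end for Atf4 was 0.00040 with the interval centred on the fitted depths, so it was not resolved whether Atf4 differed beyond counting error. Of the 3 targets, Trib3 and Chac1 were thus lower with intervals below 0, beside a nearly level Atf4 mRNA. For Ddit3, higher by its point value, a difference beyond counting error was not resolved either.

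The serine pathway leads from a glycolytic intermediate to serine through Phgdh, its first and committed enzyme, then Psat1 and Psph. Phgdh had 90.27 FPKM in the PB library against 87.21 in PB-TERRA, giving a log2 ratio of -0.05 (95% interval -0.11 to 0.015). Psat1 had 149.14 and 151.89 FPKM, giving a log2 ratio of 0.03 (-0.02 to 0.07), and Psph had 13.03 and 12.03 FPKM, giving a log2 ratio of -0.11 (-0.31 to 0.08). For these 3 enzymes the interval included 0. The level of Psat1 over that of Phgdh was 1.65 in PB and 1.74 in PB-TERRA, and that of Phgdh over Psph was 6.93 and 7.25. Phgdh shared the most sequence of the 10, since 47.8% of its 50-base stretches in the GENCODE M21 transcripts also occur in 23 other annotated genes, the largest share in Gm7901. Psph shared 8.82% of its stretches with Cct6a. The effect of shared sequence on these values was not measured, and how the authors' counting treated such reads is not given in the sources used here.
Asns, which makes asparagine from aspartate and glutamine, had 124.89 FPKM in the PB library against 121.75 in PB-TERRA, giving a log2 ratio of -0.04 (-0.09 to 0.017).
In mitochondria Shmt2 splits serine into glycine and a one-carbon unit, and Mthfd2 oxidises that unit on the way to formate. Shmt2 had 100.27 FPKM in the PB library against 89.94 in PB-TERRA, from 5431 and 4875 reads. Its log2 ratio of -0.16 (95% interval -0.21 to -0.10) was the lowest of the 6 enzymes, and it was the only enzyme of the 6 whose interval excluded 0. This corresponds to a decrease by 10.3%. Mthfd2, the next enzyme, had 37.30 and 36.87 FPKM, giving a log2 ratio of -0.02 (-0.11 to 0.08). The level of Shmt2 over that of Mthfd2 was 2.69 in the PB library and 2.44 in that of PB-TERRA mESCs.

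**Figure D2:**
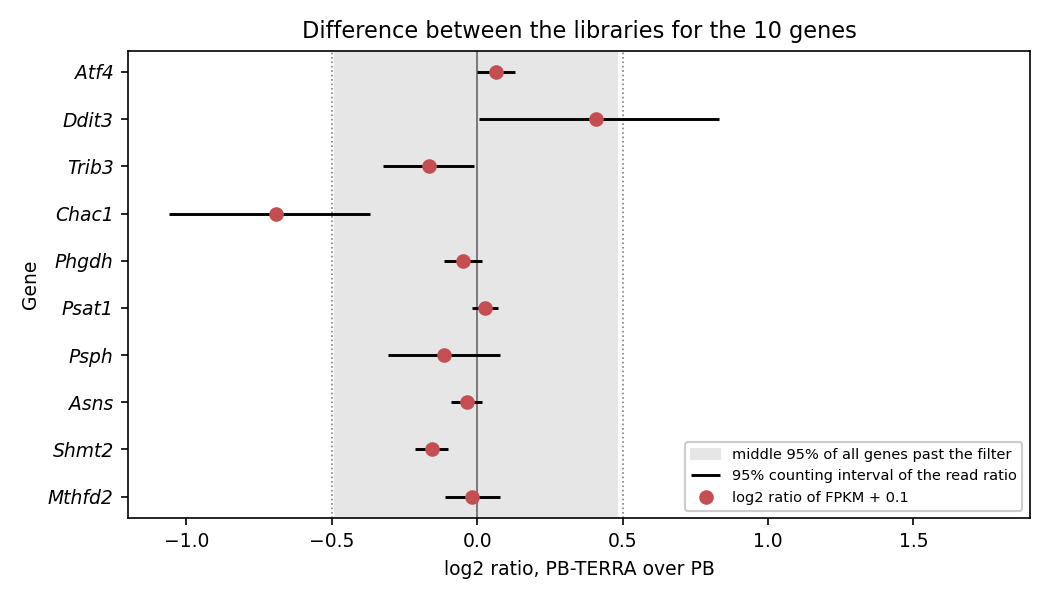
log2 ratio of each of the 10 genes, PB-TERRA over PB (points, FPKM + 0.1), with the exact 95% counting interval of the read ratio (lines), dotted lines at -0.5 and 0.5, and the middle 95% of all genes past the filter shaded (-0.49 to 0.48). Chac1 is the only gene of the 10 whose point lies outside the shading, and the intervals of Shmt2, Trib3 and Chac1 lie below 0.

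Of the 10 genes, 3 were higher and 7 lower in PB-TERRA, with a median log2 ratio of -0.04 and a range from -0.69 to 0.41. With the trend over gene length taken off, as described below, 5 were higher and 5 lower with a median of -0.0041. Over all genes past the filter the median was -0.0044, with 5962 higher and 6244 lower. A log2 ratio of 1 or more, whichever its sign, was reached by 0 of the 10, and by 0.913% of all genes. A size of 0.5 or more was reached by 1 of the 10, Chac1, and by 4.67% of all genes. For a log2 ratio of -0.5 or lower the background was 2.37%. The background of 0.5 in either direction depended on level, with 8.66% of genes under a mean of 10 FPKM, 1.04% between 10 and 50 and 1.27% from 50 upwards, and Chac1 is in the first of these classes. The interval lay below 0 for 3 of the 10 genes (Trib3, Chac1 and Shmt2), against 17.5% of all genes, and above 0 for 1 (Ddit3), against 18.2%. Among genes at the level of most of the enzymes the interval lay below 0 more often, as given below for the tRNA synthetases. From counts over 10 genes nothing particular to the list was read.
The 4 stress regulators had a median log2 ratio of -0.05 over a range from -0.69 to 0.41, and the 6 enzymes had a median of -0.04 over a much narrower range, from -0.16 to 0.03. Levels differed too, and across all genes the SD of the log2 ratio was 0.40 under 10 FPKM, 0.17 from 10 to 50 and 0.25 from 50 FPKM upwards. The summed level of the 6 enzymes was 514.9 FPKM in the PB library against 499.69 in PB-TERRA.

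**Figure D3:**
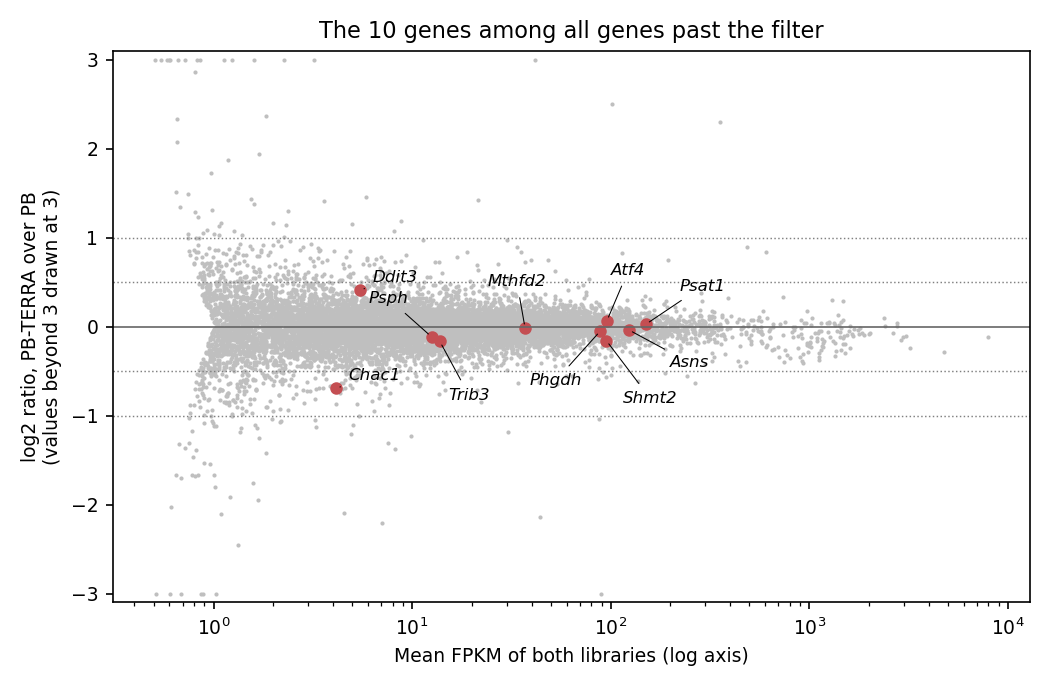
log2 ratio, PB-TERRA over PB, against mean FPKM of both libraries (log axis) for the 12263 genes past the filter (grey) and the 10 genes (red), with values beyond 3 drawn at 3 and dotted lines at 0.5 and 1 in both directions. The 10 genes lie inside the cloud of all genes at their own level, with Chac1 at -0.69 near its lower edge.

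The log2 ratio also moved with gene length. Among genes of like length the median log2 ratio lay between -0.06 and -0.0056 for the 10 genes, which are 870 to 2303 bases long. With it taken off, Chac1 had -0.65, Ddit3 0.47, Trib3 -0.16, Shmt2 -0.14 and Atf4 0.12. Phgdh (0.0011) and Asns (0.014) then changed sign, both near 0.

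Upstream of ATF4, 20 of 21 listed genes for the eIF2 kinases, eIF2, its exchange factor eIF2B and its phosphatase were in the table, and all 20 passed the filter. The list had 10 genes higher and 10 lower, with a median log2 ratio of 0.0025. None reached 0.5 (0 genes), beside 4.67% of all genes. The highest was Eif2ak2, the kinase PKR that senses double-stranded RNA, with 4.51 FPKM in the PB library against 5.60 in PB-TERRA, giving a log2 ratio of 0.31 (95% interval 0.13 to 0.49). Eif2s1, the eIF2 subunit that these kinases phosphorylate, had 69.33 and 76.49 FPKM, giving a log2 ratio of 0.14 (0.09 to 0.20). Eif2b5 (-0.23) and Eif2b3 (-0.15), subunits of the exchange factor that phosphorylated eIF2 inhibits, had the lowest log2 ratios. The most abundant genes of the list were Ppp1ca, a catalytic subunit of the phosphatase, with a log2 ratio of -0.11, and the eIF2 subunit gene Eif2s3x with 0.10. The interval lay above 0 for 6 of the 20 genes and below 0 for 4, beside 18.2% and 17.5% of all genes.

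Of 30 other known ATF4 targets, 26 passed the filter, 14 of them higher and 12 lower, with a median log2 ratio of 0.02. The interval lay below 0 for 6 and above 0 for 2, beside 17.5% and 18.2% of all genes. A size of 0.5 was reached by 2, beside 4.67% of all genes and 8.66% of those under 10 FPKM, where both lie. These 2 were Adm2, a peptide hormone gene, with 1.80 FPKM in the PB library against 1.05 in PB-TERRA (ratio on the log2 scale -0.72, 95% interval -1.47 to -0.11), and Stc2, a secreted glycoprotein gene, with 8.29 and 5.52 FPKM (-0.58, -0.83 to -0.34). Gdf15, a stress-induced cytokine gene (log2 ratio 0.42, interval -0.30 to 1.22), and Nupr1, a stress-induced chromatin factor gene (0.26, -0.19 to 0.72), had the highest log2 ratios, from so few reads that the differences were not detectable at this depth. Among the abundant targets, Eif4ebp1, which encodes a repressor of cap-dependent translation, had a log2 ratio of -0.08 and the amino acid transporter gene Slc38a2 of 0.06. Of the 30 targets, whether past the filter or not, 23 had a promoter window. Of these, 9 held TGATGNAA, a share of 39.1% beside 4.51% of all genes with a window. The list was made of known ATF4 targets, so this share describes the list and is not a test.
The cytosolic aminoacyl-tRNA synthetases, which charge tRNAs with amino acids, and the tRNA exporter Xpot made a list of 21 genes that all passed the filter. They had 6 genes higher and 15 lower, with a median log2 ratio of -0.04. The interval lay below 0 for 10 of the 21 and above 0 for 3, beside 17.5% and 18.2% of all genes. For genes that averaged 50 FPKM or more, to which most of these belong, the share below 0 was 32%, for those from 10 to 50 it was 19.1%, and for those under 10 it was 11.9%. The differences were small, from Sars (-0.14) and Yars (-0.13) to Aars (0.06) and Farsb (0.11), and none reached 0.5 (0 genes), beside 4.67% of all genes. The most abundant of them, Kars and Gars, had log2 ratios of -0.09 and -0.04.

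**Figure D4:**
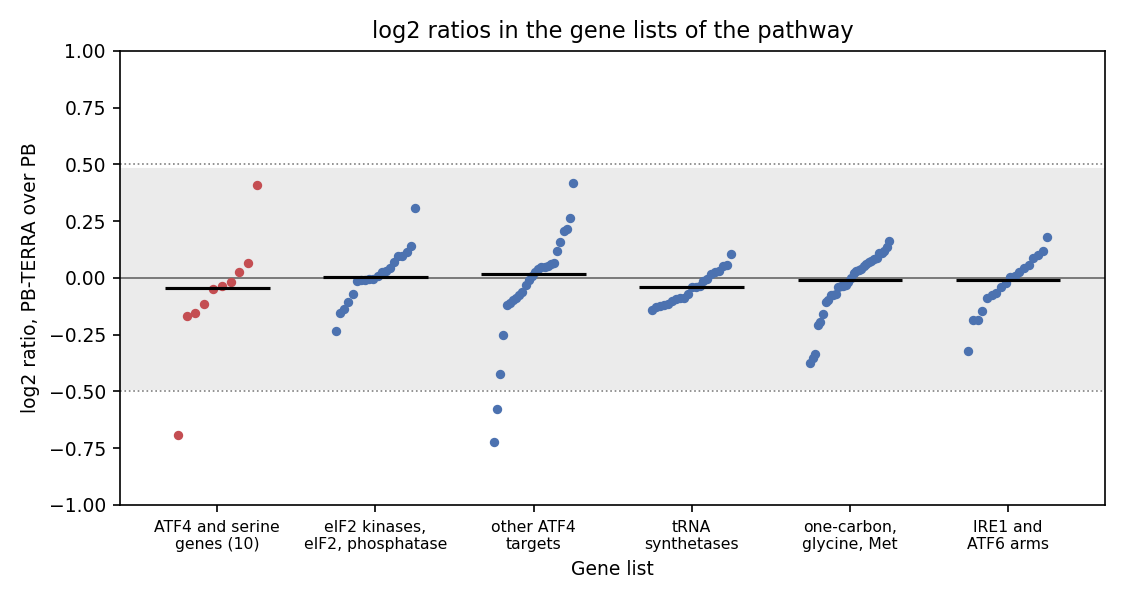
log2 ratio, PB-TERRA over PB, of the 10 genes (red) and of the genes past the filter in 5 further lists of the pathway (blue), in ascending order within a list, with the list median as a bar, the middle 95% of all genes shaded and dotted lines at -0.5 and 0.5. The medians lie between -0.04 and 0.02, and Chac1, Adm2 and Stc2 are the only points beyond 0.5 in either direction.

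The list of further one-carbon, glycine and methionine cycle genes held 35 genes, of which 34 were in the table and 32 passed the filter, with 15 higher, 16 lower and a median log2 ratio of -0.0088. The interval lay below 0 for 8 and above 0 for 4, where the shares of all genes were 17.5% and 18.2%, so the count below 0 was not far from the background. Gldc, the decarboxylase of the mitochondrial glycine cleavage system, had 87.44 FPKM in the PB library against 67.36 in PB-TERRA, giving the lowest log2 ratio of the list, -0.38 (95% interval -0.42 to -0.33). The other glycine cleavage genes Amt (0.11), Gcsh (0.04) and Dld (0.03) had intervals that included 0. Gcat, which converts the product of threonine dehydrogenase into glycine, had 24.32 and 19.01 FPKM, giving a log2 ratio of -0.35 (-0.48 to -0.23). Methionine synthase, Mtr (0.16), and Mthfd2l, a paralogue of Mthfd2 (0.13), had the highest log2 ratios, and the most abundant genes were Paics, a purine synthesis enzyme (-0.04), and Mat2a, which makes S-adenosylmethionine (0.05). Mthfd2 was the main form of its pair in these cells, 11.7 times the level of Mthfd2l in PB and 10.5 times in PB-TERRA. For serine hydroxymethyltransferase both forms were abundant, with Shmt2 at 1.36 times the level of the cytosolic Shmt1 in PB and 1.32 times in PB-TERRA.
The IRE1 and ATF6 arms of the unfolded protein response, which act beside the PERK and ATF4 arm, had 18 genes past the filter, 9 higher and 9 lower, with a median log2 ratio of -0.01 and none at 0.5 (0 genes). All genes had shares of 17.5% below 0 and 18.2% above, and this list had 5 and 2 of its 18. The lowest were Sec61b, a subunit of the translocation channel (-0.32, 95% interval -0.42 to -0.22), and Sdf2l1 (-0.19, -0.39 to 0.016), an ER quality control gene, and the highest were Atf6 (0.18), a stress sensor, and the chaperone gene Calr (0.12). Hsp90b1, an abundant ER chaperone gene, had a log2 ratio of -0.02.
The deposited table gives GO process terms for 8 of the 10 genes, and 7 terms are shared by at least 2 of them. The term with the most of the 10 is response to endoplasmic reticulum stress. Atf4, Ddit3, Trib3 and Chac1 carry it, as do 11 other genes past the filter, 6 of them higher and 5 lower, with a median log2 ratio of 0.0011. Among these 11 none reached 0.5 (0 genes), beside 4.67% of all genes. The most uneven split was that of response to topologically incorrect protein, carried by Ddit3 and Chac1. Its 30 other genes were 23 higher and 7 lower, with a median log2 ratio of 0.06. The interval lay above 0 for 10 of them and below 0 for 2, beside 18.2% and 17.5% of all genes. This term was picked for its split, so the split was not read as a result. Over the 7 terms the median of the other genes ran from -0.04 to 0.06.

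The cultures were also described by markers of cell types. All 8 mESC markers were expressed in both libraries, from 49.74 to 1162.5 FPKM in PB and from 51.11 to 1039.92 in PB-TERRA. Of the 7 primitive endoderm markers 5 passed the filter, Pdgfra only through PB-TERRA. They ran from Dab2 with 5.04 and 6.35 FPKM down to Pdgfra with 0.51 and 1.0 FPKM. All 5 were higher in PB-TERRA, with the interval above 0 for 4, beside 18.2% of all genes. Gata6, with 1.22 and 2.26 FPKM, had a log2 ratio of 0.84 (95% interval 0.52 to 1.27). The 7 markers summed to 10.5 FPKM in the PB library against 14.65 in PB-TERRA. The 8 fibroblast markers, of which 4 passed, Col1a2 and Pdgfrb only through PB-TERRA, summed to 20.01 and 24.02 FPKM. The 3 collagen genes had intervals above 0, Col1a1 with 7.99 and 12.14 FPKM, Col1a2 with 0.92 and 1.37 and Col3a1 with 0.21 and 0.47, while the interval included 0 for Thy1 (9.16 and 8.39 FPKM) and the other 4. The 5 neural markers, of which Neurog2 was at or next to the lowest listed value, summed to 86.66 and 74.5 FPKM. Most of that sum came from Tubb3 (57.66 and 51.48 FPKM) and Nes (27.3 and 20.93), whereas Sox1, with 1.06 and 1.56 FPKM, had a log2 ratio of 0.52 (95% interval 0.19 to 0.93). The 7 markers of 2-cell-like cells, which arise rarely in mESC cultures, summed to 3.81 and 1.75 FPKM. Of these 2 passed, both only through PB, Zscan4f with 1.42 and 0.60 FPKM and Gm2016 with 1.0 and 0.34. Tcstv3 (0.05 and 0.11 FPKM) and Usp17lb (0.03 and 0.06) went the other way. The part of these cell types in the differences of Chac1, Ddit3 and Shmt2 was not tested. In bulk RNA fewer cells of a type and less RNA per cell cannot be told apart.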

How the data were processed

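PB and PB-TERRA mESCs were sequenced by the authors as 1 library each (TruSeq kit, BGISEQ500). The submitters' processing notes name HISAT, Cufflinks and the build mm9, with no roles. The expression columns that the authors deposited were read as FPKM, with 2 decimals and a lowest value of 0.01, although the header names no unit. The table also holds the authors' own fold changes, p-values and adjusted p-values from PossionDis, which were not used.

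Depth was fitted, with the length offset (114 bases in PB, 112 in PB-TERRA), as the value that brings FPKM times length closest to whole reads over genes under 1500 bases, 3 FPKM and 12 reads. Of 883 and 927 values, 82.8% and 87.7% came within 0.2 reads of a whole number. Depth and offset were fitted to these same values, so the shares describe the fit and do not test it. Sums of FPKM gave offsets of 114 bases in both. The fit was tested on simulated data. Intervals are Clopper-Pearson at 95%, centred on the FPKM ratio, and cover counting error only. No test between conditions was possible. The log2 ratio used FPKM + 0.1.

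The genes, lists and thresholds were chosen with earlier results of these data known. Of each further list, the genes named are the 2 highest, the 2 lowest and the 2 most abundant. Shmt1, Amt, Gcsh, Dld and the genes in the closing section were chosen after their values were seen. Alternatives were other pseudocounts, filters, scalings, a length correction in 50 bins and read ratios. Transcript stretches came from GENCODE M21 on GRCm38 and promoter windows from RefSeq (10 of 10 genes matched), not from mm9. Calculations ran in Python 3.11.15 with scipy 1.17.1, pandas 2.3.3 and numpy 2.4.6, and plots were drawn with matplotlib 3.10.9.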

Additional observations from a re-analysis of the deposited data

How the results depend on the processing

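Each of the 10 log2 ratios was recomputed under 8 alternatives, 79 values in all, since Chac1 is lost at a mean of at least 5 FPKM. All 79 stayed within the counting interval of their gene, but 2 of the 8 alternatives are filters, which cannot move the ratio of a gene they keep. Chac1 ranged from -0.71 to -0.57 and Ddit3 from 0.35 to 0.47. Phgdh and Asns changed sign with the length trend taken off. Trib3 and Shmt2 stayed below 0 in every alternative, interval included. With Chac1 lost, 0 of the 9 remaining genes reached 0.5. The interval lay on 1 side of 0 for 3 to 5 genes, and besides Chac1, which the filter on the mean removes, Atf4 and Ddit3 are the ones that came and went. Atf4 was included after centring on the median, after the length correction and with the interval centred on the fitted depths, a choice made after seeing the data, and Ddit3 was left out with that centring and under upper quartile scaling. The number of all genes at a log2 ratio of 1 or beyond moved from 112 to 45 with a pseudocount of 1, to 513 without a filter and to 17 at a mean of at least 5 FPKM. At 0.5 it moved from 573 to 285, 2282 and 133. The causes were not tested, beyond the number of genes that each filter keeps. No paired analysis was possible because each condition has 1 library.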

Other observations

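Among the further ATF4 targets, Ddit4, an inhibitor of mTORC1 that is also known to respond to low oxygen, had 38.61 FPKM in the PB library against 28.73 in PB-TERRA, giving a log2 ratio of -0.43 (95% interval -0.54 to -0.31). Slc1a4, a transporter of neutral amino acids such as serine, had 9.59 and 8.03 FPKM, giving a log2 ratio of -0.25 (-0.40 to -0.12). The cationic amino acid transporter genes differed in sign, with Slc7a1 at 15.18 and 16.94 FPKM (log2 ratio 0.16, 0.08 to 0.23) and Slc7a3 at 62.95 and 58.37 FPKM (-0.11, -0.18 to -0.04). In the one-carbon list, Mthfd1l, the mitochondrial enzyme that releases formate, had 31.23 and 27.32 FPKM, giving a log2 ratio of -0.19 (-0.27 to -0.11), and Shmt1 had 73.52 and 68.29 FPKM, giving a log2 ratio of -0.11 (-0.17 to -0.04). Mthfd1, the cytosolic enzyme, had 99.08 and 101.36 FPKM, giving a log2 ratio of 0.03 (-0.01 to 0.08). Tdh, the threonine dehydrogenase characteristic of mESCs, had 185.57 and 180.25 FPKM, giving a log2 ratio of -0.04 (-0.09 to 0.0027). Of the eIF2 kinases, Eif2ak1, which senses haem shortage, had 30.53 and 33.04 FPKM, giving a log2 ratio of 0.11 (0.03 to 0.20), and Eif2ak3 and Eif2ak4 had log2 ratios of 0.03 and -0.07 with intervals that included 0.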
